A study of Sus scrofa with 2 samples.

Results

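The genes described here are 10 feedback inhibitors of MAP kinase signalling: the MAP kinase phosphatases DUSP1, DUSP4, DUSP5, DUSP6 and DUSP10, and the Sprouty family genes SPRY1, SPRY2, SPRY4, SPRED1 and SPRED2. They were taken by symbol, and all 10 had a row among the 34570 genes of the deposited tables. RNA was measured in follicular granulosa cells, the somatic cells around the oocyte, from the ovaries of female Chinese Erhualian pigs. The control group received NC-siRNA, and the other group received an siRNA against SMAD4, the SMAD shared by TGF-beta and BMP signalling. RNA of 3 individuals per group was pooled into 1 library, and the labels do not say whether both pools came from the same animals. A single library stands for each treatment, so no test between treatments could be made and every difference is one between these 2 libraries.

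Growth factor receptors pass their signal through RAS to the kinases MEK and ERK, while stress and cytokine signals reach the related kinases p38 and JNK. MAP kinase phosphatases end the signal by removing both activating phosphates from the kinase, and the transcription of several of them is itself switched on by that kinase. Sprouty and SPRED proteins act further up, where they hold back the signal at the level of RAS. In granulosa cells, ERK is known for relaying the ovulatory luteinizing hormone signal.

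Values are RPKM (reads scaled by transcript length and library size), with the upper quartile of each library in place of library size. Levels of different genes can be set side by side per length, but they are not on the scale of plain RPKM. Whole reads behind each value were recovered as the smallest that give the deposited numbers, and are lower bounds. The libraries held at least 17680952 reads (control siRNA) and 17394711 reads (SMAD4 siRNA). Each range in parentheses is an exact 95% interval for counting error alone: Poisson for a level, Clopper-Pearson for a ratio of SMAD4 siRNA over control siRNA. Variation among animals and among transfections is not in these intervals, nor are copies of 1 molecule made by PCR, which cannot be recognised here. SMAD4 had a value of 85.0 in the control library and of 47.9 in the SMAD4 siRNA library, a ratio of 0.563 (0.497 to 0.639). Of 14 granulosa markers, 11 were measured, with 2 ratio intervals below 1 and 1 above. GATA4 (748 and 774) and WT1 (521 and 509) were alike in both libraries, AMHR2 had a ratio of 0.493, NR5A1 one of 0.849 and INHBA one of 1.31, CYP19A1, AMH and INHBB were listed at 0, and FSHR had 16 reads in all. The summed value of smooth muscle markers was 675422 and 443039, most of it ACTA2 with a ratio of 0.622, while TAGLN was at 0.801, CNN1 at 0.832 and DES at 1.16. For leukocyte markers it was 586 and 578, nearly all of it CD14 (579 and 566), while PTPRC had 3 reads in all and CD3E was listed at 0. For epithelial markers it was 426 and 474, most of it KRT8 (386 and 428), with EPCAM and CDH1 listed at 0. For endothelial markers the summed value was 452 and 352, most of it PECAM1 (275 and 240) and ERG (167 and 97.2), with TEK and EMCN listed at 0. For theca and stroma it was 53667 and 45173, most of it COL3A1 with a ratio of 0.768 and COL1A1 with one of 1.06. DCN was at 0.743 and LUM at 0.583, and CYP17A1 was listed at 0. In that list 4 of 7 measured genes had a ratio interval below 1 and 1 had one above. Among smooth muscle markers the counts were 3 and 1 of 4 measured, and among endothelial markers 2 and 0 of 5. All measured leukocyte, epithelial and oocyte markers had intervals that span 1. Beside these counts, 21.5% of all genes tested (defined below) had an interval below 1 and 12.7% one above. With at least 100 reads in both libraries together, the shares were 32.4% and 17.6%. For oocyte markers the summed value was 76.1 and 61.7, nearly all of it GDF9 (73.2 and 56.6), whose ratio interval spans 1. The part of these cells in the results below was not tested. In a pooled library, fewer cells of a type and less RNA per cell cannot be told apart.

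SPRY4, SPRED2 and SPRED1 were lower in the SMAD4 siRNA library by more than counting error, as were 21.5% of all genes tested, and DUSP5 was slightly higher. For SPRED1 this no longer held once both libraries were brought to the same sum, at a ratio of 0.818 (0.638 to 1.05). DUSP1, DUSP4, DUSP10, SPRY1 and SPRY2 had intervals that span 1. No measured gene of the group reached a 2-fold difference in either direction, where 6.68% of the 16609 genes tested (mean value of at least 1) were lower by at least 2-fold and 7.17% were higher. Among genes with at least 100 reads, as 8 of the 9 measured genes have, these shares were only 1.12% and 1.32%. DUSP6 was listed at 0 in both libraries, which left 9 genes with values.

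The phosphatases covered a wide range of levels. DUSP1, also known as MKP-1, is a nuclear and rapidly induced phosphatase of p38, JNK and ERK. Its value was 1717 (1636 to 1801) in the control library and 1770 (1692 to 1851) in the SMAD4 siRNA library, on 1687 and 1915 reads. DUSP1 thus had a ratio of 1.03 (0.965 to 1.10), and the intervals of its levels overlap. It alone made up 74.0% of the summed value of the 9 measured genes in the control library and 75.7% in the other, and its level lay above that of 93.6% and 94.1% of the genes tested.

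DUSP5, a nuclear phosphatase specific for ERK, had the next highest level of the phosphatases. Its value was 159 (139 to 181) in the control library and 194 (173 to 217) in the SMAD4 siRNA library, on 232 and 311 reads. The ratio of DUSP5 was 1.22 (1.02 to 1.45), a log2 ratio of 0.28, although the intervals of the levels themselves overlap. DUSP5 was the only phosphatase of the group with a ratio interval above 1, which 12.7% of the genes tested had.

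DUSP4, a nuclear phosphatase of ERK and other MAP kinases, had low values of 19.0 (14.9 to 23.8) and 21.4 (17.3 to 26.3) in the control and SMAD4 siRNA libraries, on 74 and 92 reads. Its ratio was 1.13 (0.822 to 1.55), an interval that spans 1 and holds the ratio of DUSP5 as well. DUSP10, which prefers p38 and JNK over ERK, had values of 55.3 (44.6 to 67.7) and 52.4 (42.5 to 63.9), on 93 and 97 reads. The ratio of DUSP10 was 0.947 (0.705 to 1.27), and the levels overlap almost fully.

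DUSP6, the cytoplasmic phosphatase specific for ERK, was listed at 0 in both libraries. A listed 0 says nothing of its expression, because the widely expressed genes FLNA and POR were listed at 0 too. The same holds for other genes of this pathway: EGFR, the receptor of EGF-like growth factors, MAPK3, which encodes ERK1, and ETV5, an ETS factor, were all listed at 0 in both libraries. Of the 161 other pathway genes with a row, 11 were listed at 0 in both libraries, against 7482 of all 22826 mRNA entries. No further row carries the name DUSP6.

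**Figure D1:**
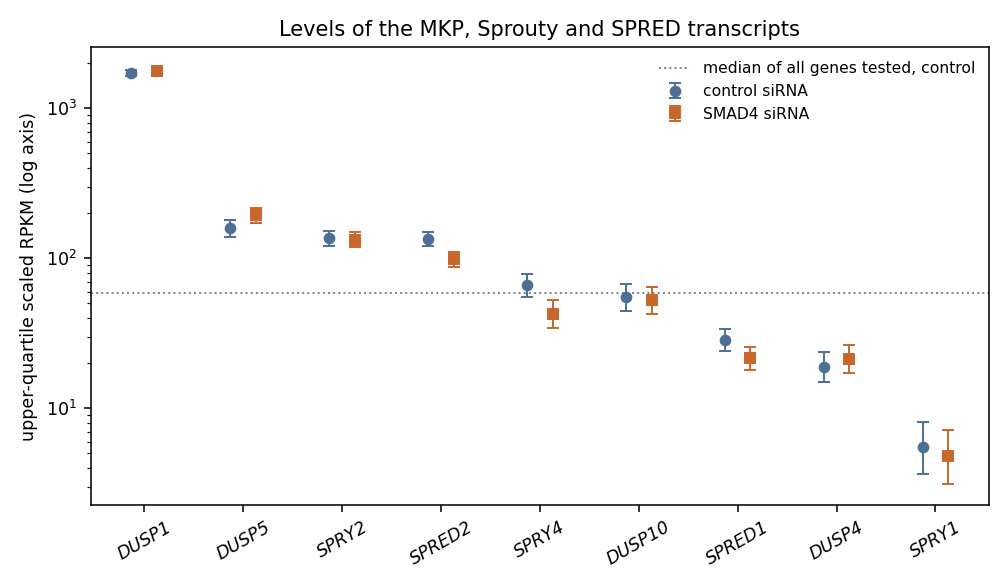
Upper-quartile scaled RPKM (log axis) of the 9 measured genes in the control siRNA library (circles) and the SMAD4 siRNA library (squares), with 95% Poisson counting intervals; the dotted line is the control median of all genes tested, 59.0. DUSP1 lies at 1717 and 1770 and SPRY1 at 5.55 and 4.84, and for SPRY4, SPRED1 and SPRED2 the SMAD4 siRNA point lies below the control interval.

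All 5 Sprouty and SPRED genes of the group had a ratio below 1, as did 54.5% of all genes tested. SPRY3 and SPRED3, relatives outside the group, had ratios of 1.07 (0.444 to 2.65) and 1.10 (0.982 to 1.24). Of the 4 measured phosphatases, 3 had a ratio above 1, as did 45.5% of all genes tested. Once the log2 ratios are centred on their median over all genes, the ratio of SPRY2 is no longer below 1. The 5 Sprouty and SPRED genes of the group had a median log2 ratio of -0.39, against 0.11 over the 4 measured phosphatases and -0.05 over all genes tested. SPRY4, which holds back RAS signalling below growth factor receptors, had the lowest ratio of the group. Its value was 66.1 (54.9 to 79.0) in the control library and 42.8 (34.3 to 52.8) in the SMAD4 siRNA library, on 122 and 87 reads. The intervals of the levels of SPRY4 do not overlap, and its ratio of 0.648 (0.486 to 0.860) corresponds to -0.62 on the log2 scale.

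SPRY2, a widely expressed Sprouty that also binds the ubiquitin ligase CBL, had a value of 136 (120 to 153) in the control library and 133 (118 to 149) in the SMAD4 siRNA library. Its ratio was 0.980 (0.830 to 1.16) on 279 and 301 reads. SPRY1, which is known for restraining receptor signalling in the developing kidney, had the lowest level of the group, 5.55 (3.62 to 8.13) and 4.84 (3.13 to 7.15). On 26 and 25 reads the ratio of SPRY1 was 0.873 (0.484 to 1.57), and a difference of the size of SPRY4's was not detectable at this depth. Within a library, the level of SPRY2 was 2.05 times that of SPRY4 under control siRNA and 3.11 times under SMAD4 siRNA.

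SPRED proteins carry an EVH1 domain besides the Sprouty domain, and SPRED1 is known to bring neurofibromin, which inactivates RAS, to the membrane. SPRED2 had a value of 134 (121 to 149) in the control library and 98.5 (87.4 to 111) in the SMAD4 siRNA library, on 356 and 287 reads. The levels of SPRED2 do not overlap, and its ratio was 0.732 (0.625 to 0.858), a log2 ratio of -0.45. SPRED1 was lower by a similar factor, with values of 28.6 (24.2 to 33.7) and 21.6 (17.9 to 25.8) on 147 and 122 reads. Its ratio was 0.754 (0.588 to 0.965), while the intervals of its levels overlap. The level of SPRED2 was 4.70 times that of SPRED1 in the control library and 4.56 times in the SMAD4 siRNA library. The ratio of SPRED1 over that of SPRED2 was 1.03 (0.765 to 1.38), an interval too wide to show that their balance was the same.

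Over the 9 measured genes, 3 had a ratio interval wholly below 1, 1 had one wholly above 1 and 5 had one that spans 1. Among all genes tested, 21.5% had an interval below 1 and 12.7% one above 1. With at least 100 reads in both libraries together, which gives narrower intervals, these shares were 32.4% and 17.6%, and the corresponding counts were 3 and 1 of 8 genes (37.5% and 12.5%). The group as a whole was therefore near the background in both directions, and its median log2 ratio of -0.08 was near the -0.05 of all genes tested.

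The scaling between the libraries bears on ratios this small. Bringing both libraries to the same sum multiplies every plain ratio by 1.09, or adds 0.12 on the log2 scale. SPRY4 then had a ratio of 0.703 (0.528 to 0.933) and SPRED2 one of 0.795 (0.678 to 0.931), both still with an interval below 1. SPRED1, as given above, then spans 1. DUSP5 stood at 1.32 (1.11 to 1.57), and DUSP1 at 1.12 (1.05 to 1.20), an interval above 1 that it did not have as deposited. The split of intervals below and above 1 went from 3 and 1 to 2 and 2 of the 9 genes, and from 21.5% and 12.7% to 13.4% and 21.3% of all genes tested. SPRY2 and DUSP10 moved to the other side of 1, with ratios of 1.06 and 1.03.

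**Figure D2:**
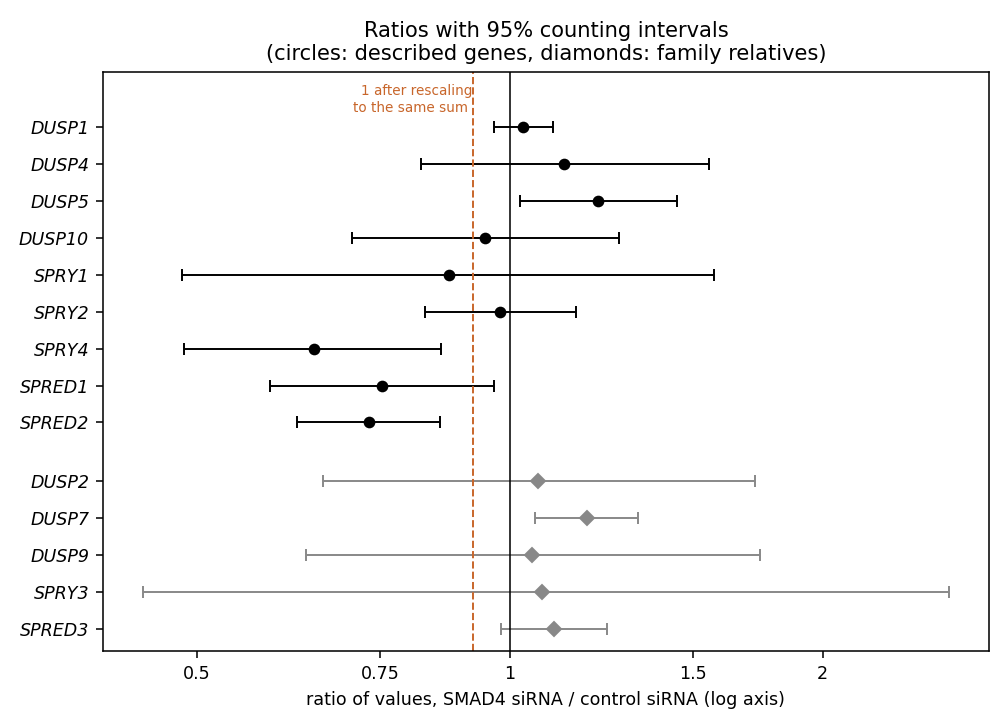
Ratio of values, SMAD4 siRNA over control siRNA (log axis), with 95% counting intervals for the 9 genes (circles) and for 5 other MAP kinase phosphatase, Sprouty and SPRED genes (diamonds). The solid line marks 1 and the dashed line where 1 lies once both libraries are brought to the same sum; the whole intervals of SPRY4 and SPRED2 lie below both lines, and those of DUSP5 and DUSP7 above both.

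A comparison of genes within the same libraries does not depend on that scaling. For all 36 pairs of the 9 genes, also chosen with the values known, the ratio of one gene was divided by that of the other, with an exact conditional interval from the 4 read counts. In 10 of the 36 pairs this 95% interval excluded 1, against 43.1% of the pairs of 102 other listed genes with at least 100 reads, which have more reads (median 1306 against 269) and so narrower intervals. A phosphatase and a Sprouty or SPRED gene made up 20 of the 36 pairs and 8 of the 10, and these 8 all involve SPRY4, SPRED1 or SPRED2, so they are not separate observations. Among the 6 pairs of phosphatases there was none, although the intervals are wide: DUSP5 and DUSP10, for instance, rest on 543 and 190 reads.

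DUSP5 against SPRY4 gave the highest ratio of ratios, 1.88 (1.34 to 2.63), followed by DUSP4 against SPRY4 with 1.74 (1.13 to 2.69). DUSP5 stood at 1.66 (1.31 to 2.11) against SPRED2 and at 1.62 (1.19 to 2.19) against SPRED1. DUSP1 was at 1.59 (1.19 to 2.14) against SPRY4, at 1.41 (1.19 to 1.67) against SPRED2 and at 1.37 (1.06 to 1.77) against SPRED1. DUSP4 against SPRED1, at 1.498 (0.997 to 2.25), had an interval that spans 1. Intervals were also widened for 36 pairs, a step added after the data were seen. Those for DUSP5 with SPRY4, DUSP5 with SPRED2 and DUSP1 with SPRED2 still excluded 1, and those of the other 7 pairs did not. No share among pairs of other listed genes was computed for the widened intervals.

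Within the Sprouty and SPRED genes, 2 of 10 pairs had an interval that excludes 1, and both involve SPRY2. Its ratio exceeded that of SPRY4 by a factor of 1.51 (1.09 to 2.11) and that of SPRED2 by 1.34 (1.06 to 1.69). With widened intervals both of these pairs spanned 1. Against SPRED1 the factor for SPRY2 was 1.30 (0.963 to 1.76), which spans 1 without widening. SPRY4, SPRED1 and SPRED2 did not separate from each other: the ratio of SPRY4 over that of SPRED2 was 0.885 (0.636 to 1.23).

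**Figure D3:**
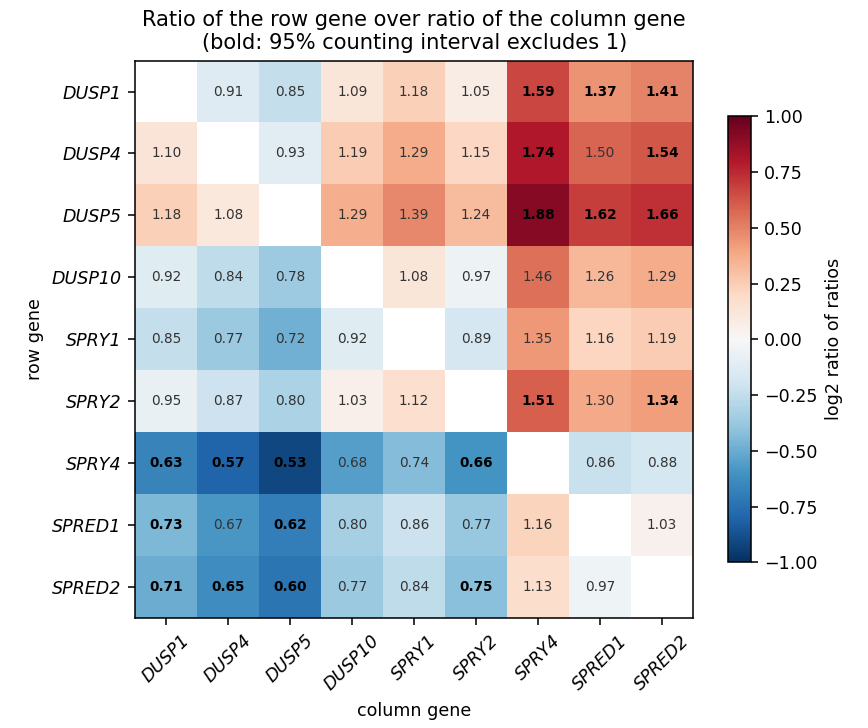
Ratio of ratios for each pair of the 9 genes, the row gene over the column gene, coloured on a log2 scale; bold numbers have a 95% counting interval that excludes 1. High values lie where DUSP1, DUSP4 and DUSP5 meet SPRY4, SPRED1 and SPRED2, with 1.88 for DUSP5 over SPRY4 as the highest. Values of similar size lie outside that block, with SPRY2 over SPRY4 at 1.51 and DUSP10 over SPRY4 at 1.46, the latter not bold.

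In order of level, DUSP1 came first in both libraries, with 10.8 times the level of DUSP5 under control siRNA and 9.12 times under SMAD4 siRNA. In the control library DUSP5, SPRY2 and SPRED2 followed with counting intervals that overlap from each to the next, then SPRY4 and DUSP10, which overlap too, then SPRED1, DUSP4 and SPRY1, each set apart from its neighbours. In the SMAD4 siRNA library DUSP5, SPRY2 and SPRED2 had intervals that no longer overlap from each to the next. DUSP10 stood above SPRY4 there with overlapping intervals, and SPRED1 and DUSP4 had nearly equal levels of 21.6 and 21.4.

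The relatives of these genes that were not in the group add to the picture. SPRED3, the third SPRED gene, had values of 137 and 151 on 531 and 645 reads, a ratio of 1.10 (0.982 to 1.24). The ratio of SPRED2 was 0.664 (0.544 to 0.809) of that of SPRED3, and the ratio of SPRED1 was 0.683 (0.519 to 0.899) of it, both pairs chosen after the values were seen. The ratio of SPRY4 was 0.587 (0.430 to 0.799) of that of SPRED3, and that of SPRY2 was 0.888 (0.724 to 1.09) of it. With intervals widened as for the 36 pairs, those of SPRED2 and SPRY4 with SPRED3 still excluded 1. That of SPRED1 with SPRED3 (0.438 to 1.06) did not. The widening does not cover the choice of these pairs with the values known, so no conclusion is drawn from it. In the control library SPRED3 and SPRED2 had nearly equal levels per length, at a quotient of 1.02, and under SMAD4 siRNA SPRED3 was at 1.53 times SPRED2. SPRY3 had 11 and 13 reads, too few to place.

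DUSP7, a cytoplasmic ERK phosphatase related to DUSP6, had values of 176 and 209, a ratio of 1.19 (1.06 to 1.33) on 537 and 701 reads. DUSP2 and DUSP9, other MAP kinase phosphatases, had ratios of 1.06 (0.661 to 1.72) and 1.05 (0.636 to 1.74), and DUSP16 was listed at 0 in both libraries. The ratio of DUSP5 over that of DUSP7 was 1.03 (0.833 to 1.27) and that of DUSP1 over that of DUSP7 was 0.870 (0.762 to 0.992), pairs likewise chosen with the values known. Against DUSP3, an atypical phosphatase with a ratio of 0.824 (0.672 to 1.01), DUSP5 stood at 1.48 (1.13 to 1.94). With widened intervals, DUSP5 with DUSP3 (0.957 to 2.28) and DUSP1 with DUSP7 (0.701 to 1.08) both spanned 1. Among the atypical dual-specificity phosphatases, which lack the MAP kinase docking domain, 10 of 14 were measured with a median log2 ratio of -0.01. DUSP14 had an interval below 1, with a ratio of 0.853 (0.747 to 0.972), and DUSP19 one above 1, at 1.86 (1.08 to 3.30) on 21 and 43 reads.

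Other brakes on receptor and RAS signalling had a median log2 ratio of -0.08 over 23 measured genes, with 8 intervals below 1 and 2 above. For comparison with this and the next lists, 21.5% of all genes tested and 32.4% of those with at least 100 reads had an interval below 1, and 12.7% and 17.6% had one above. Among those with at least 100 reads ERRFI1, the inhibitor of EGF receptor kinases, was lowest at 0.710 (0.669 to 0.754), and RASA3, a RAS GTPase-activating protein, was at 0.736 (0.674 to 0.803). RASA1, another protein of that kind, was highest at 1.47 (1.23 to 1.76). Partners of Sprouty and SPRED proteins had a median of 0.05 over 10 genes, with PPP2CA, a catalytic subunit of phosphatase PP2A, at 0.801 (0.743 to 0.864) and CAV1, the caveola protein, at 1.40 (1.10 to 1.78).

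The signalling chain above and below the inhibitors had ratios on both sides of 1. Receptor tyrosine kinases had a median log2 ratio of -0.19 over 13 genes, with 6 intervals below 1 and 1 above, and KIT was lowest of those with at least 100 reads, at 0.481 (0.412 to 0.561). Growth factor ligands had one of -0.19 over 12 genes, with 1 interval below 1 and 2 above, all from genes under 100 recovered reads. By at least 2-fold, 1 ligand was lower and 3 were higher, again all under 100 recovered reads. Of all genes tested, 6.68% were lower and 7.17% higher by that much. In the RAS to ERK relay the median was -0.03 over 22 genes, with 6 intervals below 1 and 4 above. MRAS, a RAS-related GTPase, was lowest at 0.628 (0.591 to 0.666), and MAP2K1, which encodes MEK1, stood at 0.799 (0.697 to 0.916). The p38 and JNK relay had a median of -0.12 over 18 genes, with 4 intervals below 1 and 2 above, and MAPK14, the main p38 kinase, was at 0.842 (0.790 to 0.898). For ERK effector kinases and ETS or SRF factors the median was -0.17 over 13 genes, with 7 intervals below 1 and 2 above.

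Transcripts known to follow ERK activity, which several of the described genes also do, had a median log2 ratio of 0.04 over 20 genes, with 6 intervals below 1 and 4 above. EPHA4, an ephrin receptor, was lowest among those with at least 100 reads at 0.727 (0.653 to 0.808), and EGR1, an immediate early transcription factor, was at 0.797 (0.723 to 0.877). IER3, another immediate early gene, was highest at 1.47 (1.31 to 1.64), and CCND1, which encodes cyclin D1, was at 1.23 (1.07 to 1.43).

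**Figure D4:**
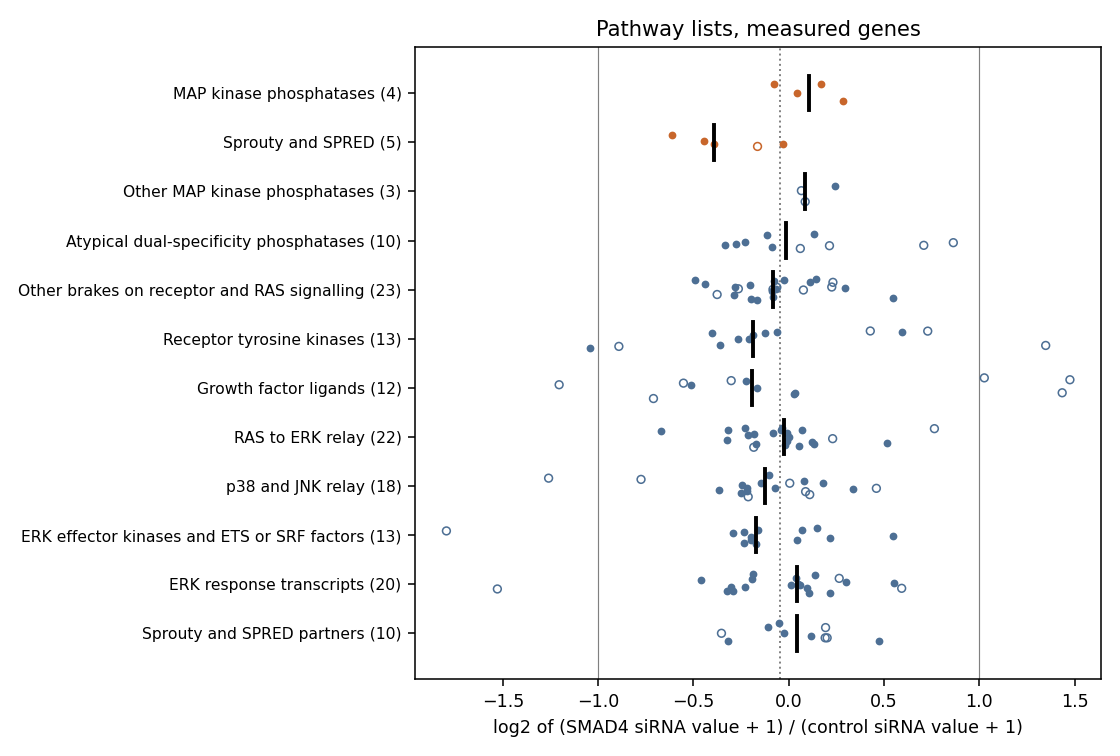
Log2 ratio, SMAD4 siRNA over control siRNA with 1 added to each value, for the measured genes of 12 pathway lists, with the number of genes after each name; filled points have at least 100 reads in both libraries together, black bars are list medians, the dotted line is the median of all genes tested (-0.05) and solid lines mark 2-fold. The median of the 5 described Sprouty and SPRED genes, -0.39, is the lowest of the 12. Their relatives SPRY3 and SPRED3, at 0.08 and 0.14, are plotted with the other brakes.

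Across both libraries, the listed gene nearest to SPRED2 in level (distance in log2 of value + 1, over 109 listed genes with at least 100 reads) was PDGFD, a PDGF ligand, with values of 145 and 101 at a distance of 0.12. For SPRED1 it was FRS2, the adaptor of FGF receptors, with 26.3 and 22.5 at a distance of 0.13. For SPRY4 it was DUSP12, an atypical phosphatase, with 53.6 and 42.3 at a distance of 0.30. With 2 libraries such nearness says only that the levels were alike in both.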

How the data were processed

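The authors deposited 1 table per library, with RPKM normalised to an upper quartile, as the deposited table names say. Aligner, counter, annotation and genome build: not given in the sources used here. Pooling of RNA came before the library, per the labels' protocols. Each value was written as whole reads over a whole length of up to 40000 bases with 1 divisor per library (890 and 980). All 18428 genes above 0 gave whole reads (tolerance 2e-09 of the reads plus 1e-06); at these divisors tRNA entries had a median length of 71.5 bases. The smallest such reads were used, so intervals are at their widest. The log2 ratio used a pseudocount of 1 and a minimum mean value of 1, so changes of low genes are understated. Of the pathway genes with a row, 15 were found through the Sscrofa11.1 name table or an older symbol. Named from the lists were genes with at least 100 reads, up to 3 at each end by ratio, and family relatives; 1 such gene is not reported here. The members and lists were chosen with earlier results of these data known. Steps ran in Python 3.11.15 with scipy 1.17.1 and were tested on simulated data.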

Additional observations from a re-analysis of the deposited data

How the results depend on the processing

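Other pseudocounts (0.1 and 5), centring of the log2 ratios (by median or trimmed mean), the same sum for both libraries, and adding further entries under a name gave, with the added setting below, 63 recomputed log2 ratios for the 9 genes, of which 61 stayed inside the gene's counting interval. The others were DUSP1 at 0.16 under both settings with equal sums. With equal sums as for TPM, SMAD4 was at -0.58, 2 of the genes had an interval above 1, and the median over the 8 genes that kept a mean value of at least 1 was 0.06. That setting also makes all values smaller, so that the pseudocount weighs more. With the SMAD4 siRNA library alone scaled to the sum of the control library, an alternative chosen after seeing the data, SMAD4 was at -0.70, SPRY4 at -0.50 and the median of the 9 genes at 0.04. SPRY2 was at 0.02 with centring on the median and at 0.01 with the trimmed mean, against -0.03 as deposited. At a threshold of 1.5-fold, 1 gene was lower, SPRY4, where 13.7% of all genes tested were. All 120 recomputed list medians stayed within the median counting bounds of their lists. These bounds come from intervals of single genes and are wide, so staying inside them says little about stability. With equal sums as for TPM some medians changed sign: RAS to ERK relay 0.10, other brakes 0.03, p38 and JNK relay 0.01. That of the described Sprouty and SPRED genes was then -0.24. None of the described genes had a further entry, so that setting could only repeat their main values, which are counted among the 61. Reads at a length set by the protein were not run, since no protein lengths were used here. No paired analysis was possible because each group has 1 library. Depth limits SPRY1, DUSP4 and DUSP10 most.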

Other observations

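Among the genes with at least 100 reads at the ends of the pathway lists, SHOC2, a scaffold protein that works together with MRAS, had values of 14.9 and 21.7, a ratio of 1.46 (1.04 to 2.06) on 58 and 93 reads. FGFR4 had a ratio of 1.51 (1.15 to 1.998), whereas FGFR2 was at 0.757 (0.674 to 0.849).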
